A study of Mus musculus with 11 samples.

Results

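Rcan1, the subunits of calcineurin and the NFAT transcription factors were followed in alveolar macrophages of mice given CpG, an agonist of Toll-like receptor 9, in a model of macrophage activation syndrome (MAS). The 8 genes Rcan1, Ppp3ca, Ppp3cb, Ppp3r1, Nfatc1, Nfatc2, Nfatc3 and Nfat5 were picked by gene symbol from 19505 named genes on the array, and each had 1 transcript cluster, the set of probes that reports 1 gene. Rcan1 was chosen from the measured values, because it was already known to stand high on day 30, so its day 30 levels are given as a description without a test. The other 7 were taken as the proteins that Rcan1 acts on and their relatives. The animals were female and of the C57BL/6J strain, 6 weeks old when bought, and had 5 injections within 10 days. In the resolution group (n = 4) these were CpG 1826 with lavage at day 30, in the acute group (n = 3) CpG 1826 with lavage at day 10, and in the control group (n = 4) PBS with lavage at day 10. No PBS group of day 30 was analysed here, so treatment and day of lavage cannot be told apart in resolution versus control. Cells were taken from lavage fluid by adherence to a surface, and each sample is 1 array.

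Calcineurin is a phosphatase made of a catalytic A subunit and a regulatory B subunit, and it becomes active when calcium rises and calmodulin binds it. It removes phosphates from NFAT proteins in the cytoplasm, which lets them enter the nucleus and act on genes, often together with AP-1 factors. Rcan1 binds calcineurin and restrains it, and the Rcan1 gene has a second, internal promoter with a cluster of NFAT sites that calcineurin signalling is known to switch on, which makes Rcan1 a feedback inhibitor and its RNA a common readout of the pathway. In myeloid cells the pathway is known downstream of pattern receptors such as dectin-1, and in osteoclast formation through Nfatc1. Nfat5 differs from the rest of the family in that it responds to osmotic stress and lacks the calcineurin docking region.

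The 2 Rcan1 promoters are shown because the gene can start at both places and the sequence before the starts differs in these motifs. RefSeq (GRCm38.p6) lists them on the minus strand of chromosome 16, 66.1 kb apart. Capitals mark the core of NFAT sites (GGAAA, or TTTCC on the other strand), the cyclic AMP response element (CRE, TGACGTCA, the same on both strands) and the AP-1 site (TGACTCA, or TGAGTCA on the other strand) in the 250 bases before each start. The motifs were searched after the sequence had been read, and no match overlaps another.
upstream start, chr16:92466170-92466419, minus strand: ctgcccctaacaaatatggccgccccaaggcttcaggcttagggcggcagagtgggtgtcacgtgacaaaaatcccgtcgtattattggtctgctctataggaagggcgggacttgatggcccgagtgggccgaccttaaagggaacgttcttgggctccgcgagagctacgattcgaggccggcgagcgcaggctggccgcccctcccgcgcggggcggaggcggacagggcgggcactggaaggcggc
downstream start, chr16:92400079-92400328, minus strand: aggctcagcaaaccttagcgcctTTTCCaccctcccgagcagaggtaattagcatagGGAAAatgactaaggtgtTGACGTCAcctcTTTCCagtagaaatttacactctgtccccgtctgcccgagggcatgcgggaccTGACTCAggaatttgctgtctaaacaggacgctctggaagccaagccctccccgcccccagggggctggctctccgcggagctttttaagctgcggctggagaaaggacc
The window before the upstream start holds 0 matches, and the window before the downstream start holds 3 NFAT cores, 1 CRE and 1 AP-1 site. At least 3 NFAT cores are in 6.39% of the 32851 windows of this length in the mouse RefSeq promoter set used here, a CRE in 1.55% and an AP-1 site in 4.46%. At least 3 NFAT cores with a CRE are in 31 windows (0.0944%), and all 3 motifs together are in 2. A match is a string of letters, not a measured binding site. The annotation of the array lists 2 RefSeq transcripts for the Rcan1 cluster, so the values below do not tell the starts apart.

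**Figure D1:**
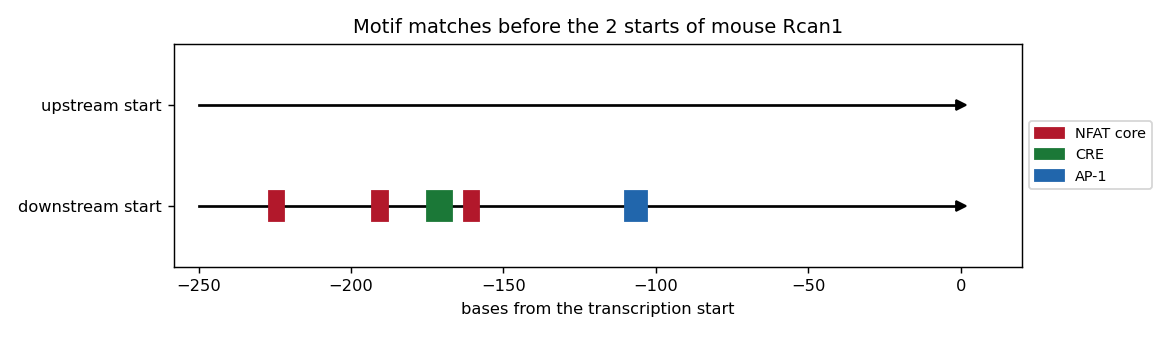
Positions of NFAT cores (red), CRE (green) and AP-1 sites (blue) in the 250 bases before the 2 starts of Rcan1, with the distance from the transcription start in bases on the horizontal axis. The window before the upstream start has no match, and that before the downstream start has 5.

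Among the other genes 5 had windows in this promoter set, Ppp3cb, Ppp3r1, Nfatc2, Nfatc3 and Nfat5. Windows of Ppp3ca and Nfatc1 were not in it, so their promoters were not searched. Ppp3cb and the first start of Nfatc2 hold 3 NFAT cores each, Nfat5 holds 2, the first start of Nfatc3 and the second start of Nfatc2 hold 1 each, and Ppp3r1 holds 0. The downstream Rcan1 start is the only one of the 9 windows of these 6 genes with a CRE or an AP-1 site. Of relatives outside the set, Nfatc4 and Ppp3r2 hold 3 NFAT cores each, the first start of Rcan2 holds 2 and Rcan3 holds 1. The third start of Rcan2 holds 1 AP-1 site.

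The arrays had median intensities of 51.4 to 57.0. Levels are log2(intensity + 1), and a step of 1 is a 2-fold difference. Array background, the 90th percentile of 23 probe sets that match no mouse sequence, lay between 6.12 and 6.24 on this scale. Levels of different genes come from different probes and are not set against each other. The macrophage genes Siglecf, Marco and Pparg averaged 15.15, 13.51 and 13.78 in resolution arrays, 14.92, 13.56 and 12.94 in acute arrays and 14.92, 13.86 and 13.03 in control arrays. All 14 measured alveolar macrophage markers were above background on every array. Of these 14 markers 4 rose and 2 fell in resolution versus control (limma, adjusted p under 0.05), where 18.6% of all tested genes passed. Fabp4 and Ctsk averaged 15.49 and 14.48 in resolution, 16.57 and 15.37 in acute and 16.68 and 15.62 in control arrays. Abcg1 averaged 14.20, 12.69 and 12.78 in these groups. In a principal component analysis, resolution replicate 2 stood at -16.7 on component 2, against 4.50 to 8.43 for the other resolution arrays, and control replicate 4 at -34.9 on component 3, against 3.41 to 9.22 for the other controls. Values without these arrays are given where they moved a gene of the set across the threshold.

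Rcan1 stood high on all 4 day 30 arrays. Its level was 14.61, 14.20, 14.35 and 14.25 in resolution, 11.87, 12.26 and 11.76 in acute and 11.85, 11.43, 11.66 and 11.52 in control arrays. The lowest resolution array was above the highest array of the other groups, while acute and control arrays overlapped. On the linear scale these are intensities of 18810.2 to 25022.1 in resolution, 3477.6 to 4897.4 in acute and 2755.3 to 3690.2 in control arrays. The group means were 14.35 ± 0.18 (SD, n = 4), 11.96 ± 0.26 (SD, n = 3) and 11.61 ± 0.18 (SD, n = 4) for resolution, acute and control.

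The resolution mean was 6.67-fold above control, a difference of 2.74 on the log2 scale, and 5.24-fold above acute, a difference of 2.39. Among the 12143 genes bright enough to be tested this was the difference with rank 7 from the top against control and rank 14 against acute. Leaving out each array in turn gave 2.65 to 2.82 against control and 2.29 to 2.54 against acute. At the end of the injections the acute mean was 0.35 ± 0.16 (SE) above control, or 1.27-fold, which did not pass the test (limma, adjusted p = 0.536). The acute difference leaned on acute replicate 2, and was 0.20 without it.

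**Figure D2:**
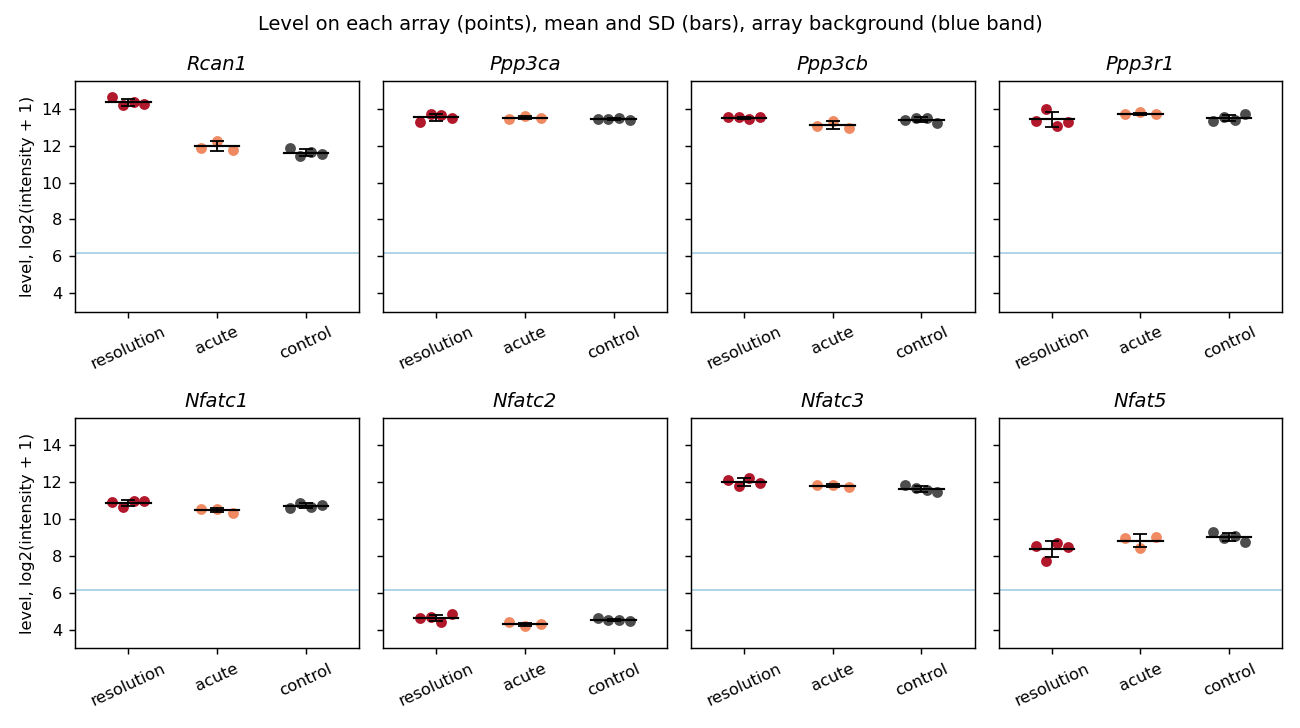
Level of each of the 8 genes as log2(intensity + 1) on every array (points) in the resolution (n = 4), acute (n = 3) and control (n = 4) groups, with group mean and SD (bars) and the range of array backgrounds (blue band). Rcan1 lies between 14.20 and 14.61 in resolution arrays, above all other arrays, and Nfatc2 lies below background on all 11.

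Calcineurin RNA was abundant over background in every group, and no subunit passed the test in any comparison. In resolution versus control 18.6% of all tested genes passed, 9.6% higher and 9% lower. In resolution versus acute 14.5% passed, 7.77% higher and 6.69% lower, and in acute versus control 0.239%, 0.189% higher and 0.0494% lower. Of the 6 genes besides Rcan1 bright enough to be tested, 0 passed in any of the 3 comparisons (limma), and at an unadjusted p under 0.05 there were 2 in resolution versus control, 2 in resolution versus acute and 1 in acute versus control.

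Ppp3ca, the alpha isoform of the catalytic subunit, read 13.28, 13.72, 13.66 and 13.52 in resolution, 13.45, 13.63 and 13.49 in acute and 13.43, 13.45, 13.50 and 13.40 in control arrays. The 3 groups overlapped. Its difference was 0.10 in resolution versus control, with a 95% interval of -0.15 to 0.35. It was 0.02 in resolution versus acute (-0.25 to 0.29) and 0.08 in acute versus control (-0.19 to 0.35).

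Ppp3cb, the beta isoform of the catalytic subunit, read 13.55, 13.53, 13.43 and 13.55 in resolution, 13.04, 13.35 and 12.95 in acute and 13.40, 13.49, 13.52 and 13.20 in control arrays. All resolution arrays lay above all acute arrays, and the control arrays overlapped both. Resolution was 0.40 ± 0.13 (SE) above acute without passing the test (limma, adjusted p = 0.0557). It passed under some other settings, with adjusted p from 0.0217 to 0.192 over all alternatives and left-out arrays. Without control replicate 4 adjusted p was 0.0475. The differences were 0.12 in resolution versus control (adjusted p = 0.560) and -0.29 in acute versus control (adjusted p = 0.534).

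Ppp3r1, the regulatory B subunit, read 13.35, 13.98, 13.06 and 13.29 in resolution, 13.70, 13.80 and 13.70 in acute and 13.36, 13.56, 13.38 and 13.70 in control arrays. Resolution replicate 2 was the highest of all 11 arrays, and the other 3 resolution arrays were below every acute array. The difference was -0.31 ± 0.19 (SE) in resolution versus acute (adjusted p = 0.297), and -0.50 without resolution replicate 2 (adjusted p = 0.0285), the 1 alternative of those run under which it passed. It was -0.08 in resolution versus control (adjusted p = 0.802) and 0.23 in acute versus control (adjusted p = 0.747).

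The further catalytic isoform Ppp3cc and the relatives Ppp3r2, Rcan2 and Nfatc4 were measured too. Ppp3cc, known best from testis, averaged 9.55 ± 0.28 (SD, n = 4) in resolution, 9.58 ± 0.15 (SD, n = 3) in acute and 9.39 ± 0.19 (SD, n = 4) in control arrays, and did not pass in any comparison (adjusted p = 0.508 to 0.925). Ppp3r2, Rcan2 and Nfatc4 were below background on every array. The RNA level of Rcan3 was not analysed here.

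The NFAT genes differed in whether they were detected at all. Nfatc2, a family member prominent in T cells, read 4.43 to 4.85 in resolution, 4.24 to 4.41 in acute and 4.47 to 4.64 in control arrays, all below background, and was too dim to be tested. Nfatc1, Nfatc3 and Nfat5 were above background on all 11 arrays. Of 13 measured T and NK cell markers 9 were below background on every array, Cd3e and Cd3g among them, and Cd3d and Il2rb were above it on the 3 acute arrays only. Cd4 was above background on 3 of 4 resolution, 2 of 3 acute and 4 of 4 control arrays, and Cd2 on all arrays, with means of 14.58 in resolution, 14.37 in acute and 14.45 in control. The summed intensity of the list was 22350.8 to 29439.3 in resolution, 20540.7 to 22836.1 in acute and 19266.5 to 26693.4 in control arrays, and most of it came from Cd2. The mean log2 level of the 13 markers was highest in acute arrays. It was 5.36 ± 0.05 (SD, n = 4) in resolution, 6.00 ± 0.16 (SD, n = 3) in acute and 5.51 ± 0.11 (SD, n = 4) in control arrays. The part of these cells in the NFAT levels was not tested.

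Nfatc1, the family member induced in osteoclast formation, read 10.91, 10.67, 11.01 and 10.97 in resolution, 10.56, 10.57 and 10.35 in acute and 10.61, 10.89, 10.69 and 10.78 in control arrays. The acute arrays lay below every resolution and every control array. Acute was -0.25 ± 0.13 (SE) from control (limma, adjusted p = 0.599). Resolution was 0.40 ± 0.13 (SE) above acute (adjusted p = 0.0538), with adjusted p of 0.0236 without resolution replicate 2, 0.121 with quantile normalization, 0.135 with the replicate block and 0.181 without acute replicate 3. The difference of resolution from control was 0.15 (adjusted p = 0.424).

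Nfatc3, another calcium-regulated factor, read 12.12, 11.78, 12.25 and 11.94 in resolution, 11.86, 11.86 and 11.74 in acute and 11.86, 11.67, 11.58 and 11.49 in control arrays. Of the 4 resolution arrays 3 were above every control array, and replicate 2 was not. Resolution was 0.37 ± 0.13 (SE), or 1.29-fold, above control without passing the test (limma, adjusted p = 0.0630), and adjusted p was 0.0293 without resolution replicate 2 and 0.0461 without control replicate 1, but 0.170 without resolution replicate 3 and 0.145 without control replicate 4. Acute was 0.17 above control (adjusted p = 0.753), and resolution 0.20 above acute (adjusted p = 0.373).

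Nfat5 was the 1 transcription factor of the set with lower values on day 30. It read 8.55, 7.72, 8.70 and 8.51 in resolution, 9.01, 8.42 and 9.06 in acute and 9.32, 9.01, 9.08 and 8.77 in control arrays. Every resolution array was below every control array, and acute overlapped both. The difference of resolution from control was -0.67 ± 0.22 (SE), or 1.59-fold lower, and missed the threshold narrowly (limma, adjusted p = 0.0502). It passed after scaling to a common median (adjusted p = 0.0298) or quantile normalization (adjusted p = 0.0167). Without control replicate 4 it was -0.76 and passed (adjusted p = 0.0456). It was -0.45 without resolution replicate 2 (adjusted p = 0.107) and -0.58 without control replicate 1 (adjusted p = 0.126). Over all alternatives and left-out arrays adjusted p ran from 0.0167 to 0.126. The differences were -0.46 in resolution versus acute (adjusted p = 0.225) and -0.21 in acute versus control (adjusted p = 0.837). The difference of acute from control was -0.01 without acute replicate 2.

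**Figure D3:**
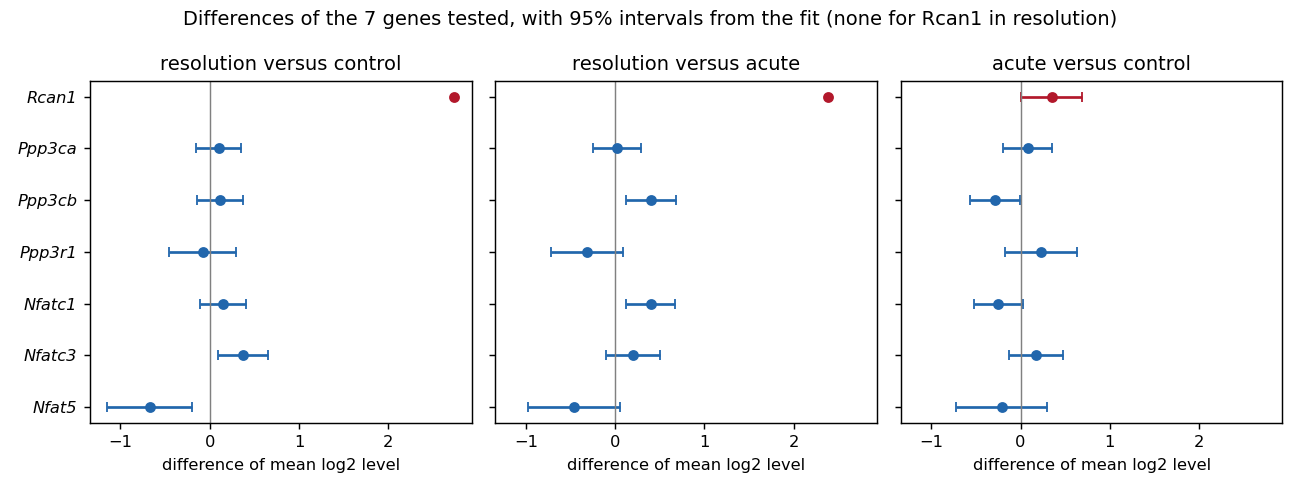
Differences of group means on the log2 scale (points) for the 7 genes tested, with 95% intervals from the limma fit (bars) except for Rcan1 in the panels with resolution, in resolution versus control, resolution versus acute and acute versus control. Rcan1 stands at 2.74 and 2.39 in the comparisons with resolution, and the other 6 genes lie between -0.67 and 0.40 in these panels.

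Complete separation of the arrays of both groups was seen for 1 of the 6 tested genes besides Rcan1 in resolution versus control (Nfat5), and for 22.7% of all tested genes, 11.4% higher and 11.2% lower. It was seen for 2 of the 6 in resolution versus acute (Ppp3cb and Nfatc1), and for 26.3% of all tested genes, 13.5% higher and 12.9% lower. In acute versus control it was seen for 1 (Nfatc1), and for 10.1% of all tested genes, 4.71% higher and 5.39% lower. The medians of the 6 differences were 0.11 in resolution versus control, 0.11 in resolution versus acute and -0.07 in acute versus control, where the medians of all tested genes were 0.00, -0.00 and -0.00. Rcan1 is left out of these counts because it was chosen for its day 30 level. The comparisons share groups, so their values are not independent.

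Genes of calcium entry, calcium pumping and calcium sensing changed at a rate near that of all genes. This and the following gene lists were written with earlier results of these data known, so their shares are a description. Of 28 listed channels, pumps, calcium sensors and calmodulin kinases 25 were on the array and 23 were tested, of which 3 rose and 2 fell in resolution versus control, 21.7% against 18.6% of all genes (9.6% higher and 9% lower). Piezo1, a mechanically gated cation channel, fell to 7.64 ± 0.24 in resolution, against 8.75 ± 0.25 in control arrays (SD, n = 4 each; adjusted p = 0.000453). Stim2, which senses calcium in the endoplasmic reticulum and opens Orai channels, fell by 0.66 ± 0.18 (SE; adjusted p = 0.0233), a call that ended without control replicate 1 (0.0603), resolution replicate 2 (0.0578) or resolution replicate 3 (0.0697). Camk2g, a calmodulin-dependent kinase, rose 1.64-fold (adjusted p = 0.00289), and the cation channel gene Trpv2 rose 1.58-fold (adjusted p = 0.0319). The remaining call, P2rx7, a cation channel opened by extracellular ATP, rose by 0.58 (adjusted p = 0.0264) and is named after its value was seen. The Trpv2 call ended without any one of control replicates 2, 3 or 4 or of resolution replicates 1, 3 or 4 (0.0537 to 0.0866). It also ended with the replicate number as a block (0.0508) and with only the 2 groups compared (0.0562). In resolution versus acute Trpv2 rose 2.35-fold (adjusted p = 0.00190), Camk2g rose 1.61-fold and Piezo1 fell by 0.87, the 3 calls of that comparison. In acute versus control 0 of 23 passed, and the smallest p was that of Trpv2 (-0.57 ± 0.21, SE; adjusted p = 0.431).

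Of 21 genes listed as regulators of calcineurin or NFAT 19 were tested, and 2 rose and 3 fell in resolution versus control, 26.3% against 18.6% of all genes. Akap5, a scaffold that anchors calcineurin, averaged 6.75 ± 0.44 in resolution arrays and 5.68 ± 0.21, below background, in control arrays (SD, n = 4 each), and rose at least 1.5-fold (adjusted p = 0.00205). Lrrk2, a kinase that restrains NFAT entry into the nucleus, rose 1.56-fold (adjusted p = 0.0141). Of the casein kinases, which phosphorylate NFAT, Csnk1e fell by 0.62 ± 0.11 (SE; adjusted p = 0.00209) and Csnk1d, named here after its values were seen, by 0.51 ± 0.11 (SE; adjusted p = 0.00749). Csnk1a1 stood at -0.30 against control, and fell by 0.36 in resolution versus acute (adjusted p = 0.0389). This call ended without any one of the 3 acute arrays, resolution replicates 1 or 4 or control replicates 1 or 2 (0.0519 to 0.103). It also ended with the replicate block (0.104), without the filter for tested genes (0.0580) and with only the 2 groups compared (0.0789). Tollip, on the list but best known as a negative regulator of Toll-like receptor signalling, fell to 12.44 ± 0.04 in resolution, against 13.21 ± 0.14 in control arrays (SD, n = 4 each; adjusted p = 0.000259). In resolution versus acute 1 rose and 3 fell, with Akap5 at least 1.48-fold higher and Csnk1e and Csnk1d lower by 0.58 and 0.56. In acute versus control 0 passed, and Tollip had the smallest p (-0.43 ± 0.11, SE; adjusted p = 0.232). Fkbp1a and Ppia, the binding proteins of the calcineurin inhibitors tacrolimus and cyclosporin, differed by -0.22 and -0.17 in resolution versus control without passing.

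Other known substrates of calcineurin were also measured, and of 12 tested 1 rose and 2 fell in resolution versus control, 25% against 18.6% of all genes. Crtc3, a CREB coactivator that calcineurin dephosphorylates, rose 2.67-fold to 12.10 ± 0.11 in resolution, against 10.68 ± 0.40 in control arrays (SD, n = 4 each; adjusted p = 0.000622). The acute mean was between them at 11.28 ± 0.47 (SD, n = 3), 0.60 above control without passing (adjusted p = 0.451). Against acute Crtc3 rose 1.76-fold (adjusted p = 0.0350), a call lost without acute replicates 1 (0.146) or 3 (0.125) or any one resolution array (0.0530 to 0.0769). Mef2a, a transcription factor, fell by 0.88 ± 0.14 (SE; adjusted p = 0.000725) and Tfe3, a regulator of lysosome genes, by 0.78 ± 0.14 (SE; adjusted p = 0.00201). In resolution versus acute 3 rose and 3 fell, 50% against 14.5% of all genes, among them Mef2c, at least 1.45-fold higher (adjusted p = 0.0332). The Mef2c call ended without acute replicates 1 (0.0580) or 2 (0.135) or resolution replicates 2 (0.0720) or 3 (0.0819), with the replicate block (0.0654) and with quantile normalization (0.0607).

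Known NFAT target genes split. Of 29 listed 27 were on the array and 18 were tested, of which 4 rose, 3 fell and 11 did not pass in resolution versus control, with a median difference of -0.09, and 38.9% passed against 18.6% of all genes. Nr4a1, Egr2 and Egr3, which are 3 of the 4 that rose, are immediate early genes too. Ccl2, a chemokine for monocytes, averaged 9.32 ± 0.45 in resolution, against 6.36 ± 0.26 in control arrays, near background (SD, n = 4 each), and rose at least 7.75-fold (adjusted p = 3.52e-06). Nr4a1, an orphan nuclear receptor, rose 4.26-fold (adjusted p = 0.000103). Ctsk, the osteoclast protease cathepsin K, fell to 14.48 ± 0.17 in resolution, against 15.62 ± 0.18 in control arrays (SD, n = 4 each; adjusted p = 5.25e-05), and Ocstamp, a protein of cell fusion, fell to 4.66 ± 0.26, below background, against 6.78 ± 0.28 in control arrays (SD, n = 4 each), at least 1.5-fold (adjusted p = 6.14e-05). Ctsk is also on the list of alveolar macrophage markers. Egr3 and Egr2 rose by 1.01 and 0.39, and Atp6v0d2 fell by 0.40, the remaining calls of the NFAT target list, named after their values were seen. The lymphocyte cytokines Il2, Il4, Il3 and Csf2 were below background on every array. In resolution versus acute 3 rose and 4 fell, among them Ccl2, at least 7.97-fold higher, and Dcstamp, another protein of cell fusion, 1.45 ± 0.27 (SE) lower (adjusted p = 0.00346). In acute versus control 0 of 18 passed, and Dcstamp had the smallest p (0.78 ± 0.27, SE; adjusted p = 0.397).

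Of 7 tested targets of Nfat5 1 fell and 0 rose in resolution versus control, 14.3% against 18.6% of all genes. This was Slc6a6, the taurine transporter, which fell to 14.23 ± 0.15 in resolution, against 14.66 ± 0.14 in control arrays (SD, n = 4 each; adjusted p = 0.0283). It did not pass without any one of control replicates 1, 2 and 3 and resolution replicates 2 and 3 (0.0534 to 0.0804). In acute versus control Slc6a6 stood at -0.39 ± 0.13 (SE; adjusted p = 0.376), and in resolution versus acute S100a4 had the smallest p (0.45 ± 0.21, SE; adjusted p = 0.166), with 0 of 7 passing in both.

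**Figure D4:**
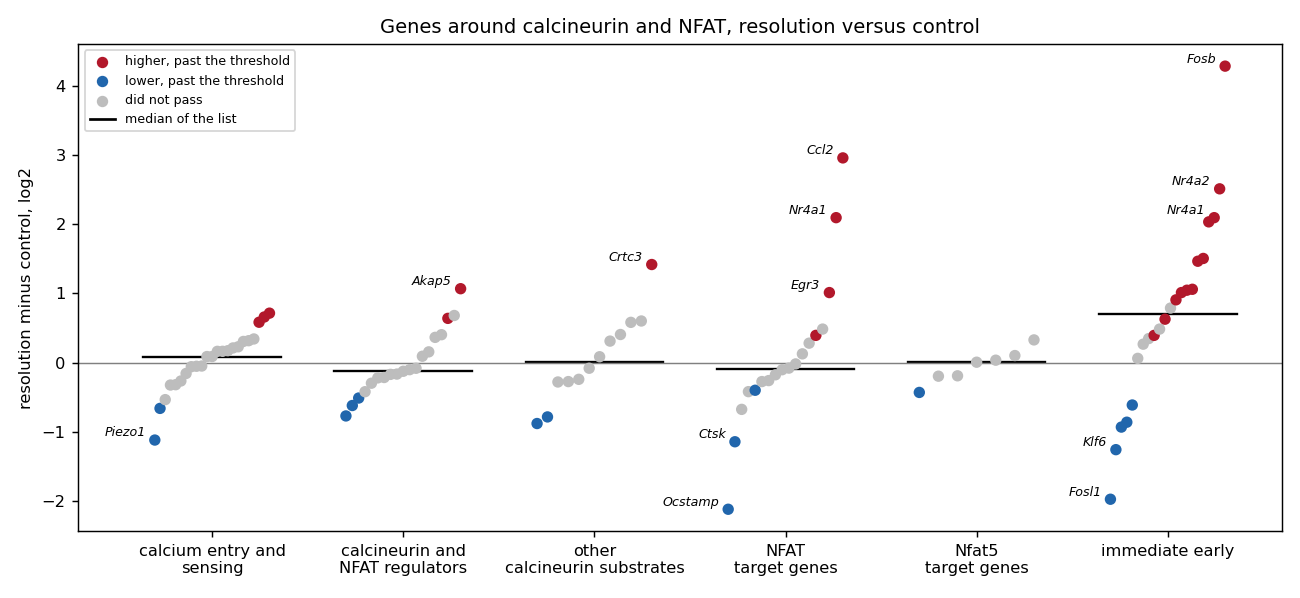
Differences of resolution minus control on the log2 scale for the tested genes of 6 lists around calcineurin and NFAT, 1 point a gene, red for higher and blue for lower past the threshold and grey for genes that did not pass, with the median of each list (bar). Higher and lower genes stand in most lists, and the median of the immediate early list is 0.71 while that of NFAT target genes is -0.09.

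Over all 7 lists, including Ppp3cc and the immediate early genes described next, 35 of 98 tested genes passed in resolution versus control, 35.7% against 18.6% of all genes, with 19 higher and 16 lower. Of these calls 17 were immediate early genes, and of the other 76 genes 18 passed, 23.7%, with 7 higher and 11 lower. In resolution versus acute 32 of the 98 passed, 32.7% against 14.5%, and 18 of the 76, again 23.7%. Against control 0 acute differences passed at the adjusted threshold and 13 at an unadjusted p under 0.05 (limma), where 9.05% of all tested genes had such a p.

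Immediate early genes, which switch on within minutes of a stimulus and also when cells are handled, changed often on the day 30 arrays, in both directions. Of 22 tested 12 rose and 5 fell in resolution versus control, 11 rose and 3 fell in resolution versus acute, and 0 passed in acute versus control, with medians of 0.71, 0.61 and 0.07. These calls are 77.3% and 63.6% of the 22, against 18.6% and 14.5% of all genes. As this list too was written with earlier results known, the shares are a description. Fosb rose 19.4-fold, Nr4a2 5.69-fold and Klf4 4.09-fold against control, while Fosl1 fell at least 3.92-fold and Klf6 by 1.26, both named after their values were seen. Against acute Fosb rose 14.0-fold. The smallest p in acute versus control was that of Myc (-0.77 ± 0.31, SE; adjusted p = 0.486). The summed intensity of all 24 listed genes was 257401 to 336162 in resolution, 207993 to 258968 in acute and 205853 to 258511 in control arrays, so that these sums overlapped. Bright genes weigh most in such a sum, and Dusp1 averaged 16.94, 16.90 and 16.88 in these groups. The mean log2 level of the list was 10.56 ± 0.10 (SD, n = 4) in resolution, 10.02 ± 0.13 (SD, n = 3) in acute and 9.94 ± 0.12 (SD, n = 4) in control arrays. Of the 24 genes 2 were below background on every array. The part of cell handling in the Rcan1 level was not tested.

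Lung epithelium markers, taken as a list, had their highest mean level in acute arrays, and their part in the Rcan1 level was not tested. Their mean log2 level over 14 measured genes was 7.27 ± 0.15 (SD, n = 4) in resolution, 8.87 ± 0.27 (SD, n = 3) in acute and 7.87 ± 0.18 (SD, n = 4) in control arrays. The summed intensities were 12939.9 to 14978.1 in resolution, 25865.3 to 44990.7 in acute and 12132.5 to 21875.0 in control arrays, and Sftpb and Krt18 were below background throughout. In an exact permutation test of list means, two-sided and adjusted over 30 tests, the difference of resolution from control had adjusted p = 0.156 and unadjusted p = 0.0286, the smallest p that 4 against 4 arrays can give. With 3 acute arrays the smallest is 0.0571. After adjustment over the 30 tests no comparison of list means could pass, with or without acute, so these tests decide nothing. In the limma fit 4 of 12 tested epithelium markers fell in resolution versus control, against 9% of all tested genes. In resolution versus acute 7 fell, against 6.69%, and in acute versus control 4 rose, against 0.189%. Of the 12 markers 3 had a higher mean in resolution than in control. Epcam and Cdh1, 2 of these, averaged 8.01 and 13.42 in resolution, 7.50 and 12.97 in acute and 7.73 and 13.05 in control arrays. Of the endothelial markers 6 of 8 were below background on every array, Pecam1 and Kdr among them, and of the fibroblast markers 5 of 7. In bulk RNA, more cells that express a gene and more RNA in each cell cannot be told apart.

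The genes whose pattern was most like that of Rcan1 over the 11 arrays were Nqo2, a quinone reductase (r = 0.985), Ski, a corepressor (0.985), Klf4, a zinc finger transcription factor (0.984), B4galnt1, a ganglioside synthase (0.983), Zyx, a focal adhesion protein (0.982), and Pdlim1, a cytoskeletal adaptor (0.980). The most opposed were Pik3r5, a regulatory subunit of phosphoinositide 3-kinase (-0.995), Lgals8, a galectin (-0.987), and Cacul1 (-0.987). Pearson correlations of this size follow from the step between the 4 resolution arrays and the other 7, and 259 of 12142 other genes had r above 0.9 and 292 below -0.9. Within the 7 day 10 arrays r with Rcan1 was 0.891 for Nqo2, 0.787 for Ski, 0.865 for Klf4 and -0.894 for Pik3r5, but 0.105 for B4galnt1 and 0.316 for Zyx. Within the 4 resolution arrays it was -0.433 for Nqo2, -0.770 for Ski, -0.674 for Klf4 and -0.726 for Pik3r5, but 0.934 for B4galnt1, 0.265 for Lgals8 and 0.218 for Cacul1. Pik3r5 averaged 10.52 ± 0.08 (SD, n = 4) in resolution, 12.99 ± 0.19 (SD, n = 3) in acute and 13.24 ± 0.12 (SD, n = 4) in control arrays. Of these 9 genes 8 had windows in the promoter set used. Of their 9 windows 1, that of Zyx, held an NFAT core, where 55.6% of all windows hold at least 1. An AP-1 site was in 2 of the 9, those of Zyx and Cacul1, against 4.46% of all windows, and a CRE in 0.

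**Figure D5:**
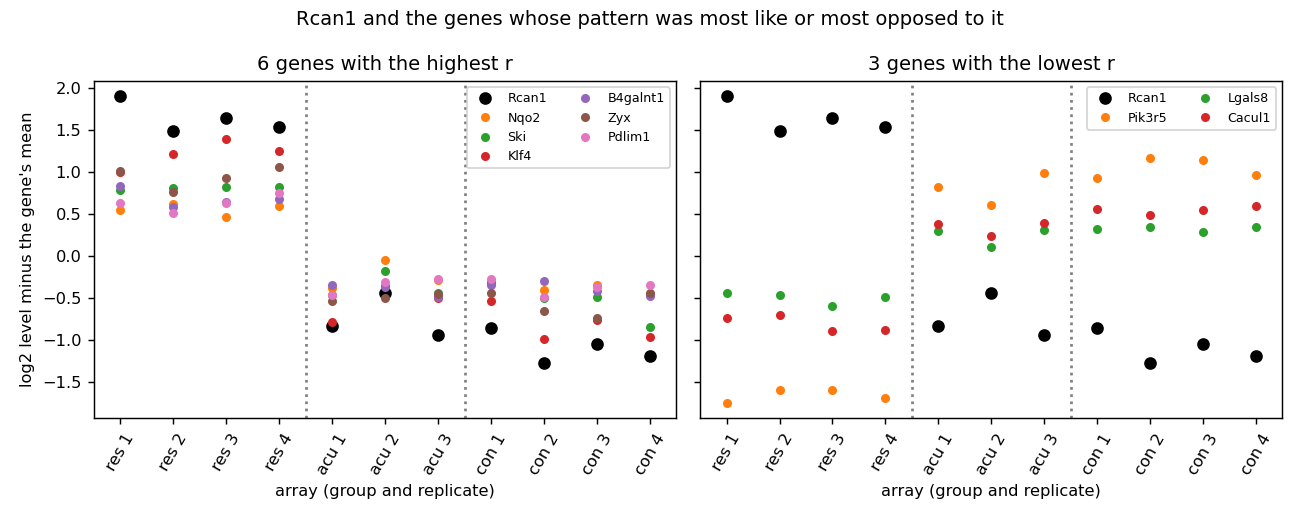
Log2 level minus the mean of each gene on the 11 arrays (points), for Rcan1 (black) with the 6 genes of highest r on the left and the 3 genes of lowest r on the right; res, acu and con are resolution, acute and control. The 4 resolution arrays stand apart from the other 7 for every gene shown.

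Over the same arrays Nfatc1 was most alike to Pisd-ps3 (r = 0.932), Tmem41a (0.924), the arylsulfatase gene Arsa (0.913) and Calcrl (0.907), a receptor for calcitonin gene-related peptide. Nfat5 was most alike to Cnot1 (0.950), a scaffold of the deadenylase complex, Hnrnph2 (0.944), an RNA-binding protein, Birc6 (0.941), a ubiquitin ligase, and Smcr8 (0.939). Of the other genes of the set Nfatc3 had the highest r with Rcan1 over 11 arrays (0.757) and Nfat5 the lowest (-0.670). These are descriptions over arrays that share 3 groups.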

How the data were processed

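The data are RNA levels of 11 samples on Affymetrix arrays. The deposited intensity values are linear, 1 per transcript cluster, and the authors made them with Affymetrix Expression Console, per the submitters' processing notes; version, summary algorithm and genome build were not given in the sources used here. They were used as log2(intensity + 1) without further scaling. The number of arrays limits precision, and the labels call replicates biological without saying whether each is 1 animal. Of 28846 probe sets 19572 had 1 symbol; the cluster with the highest mean stood for a symbol. Genes above the 40th percentile of an array on at least 3 arrays were tested (12143), which left out Nfatc2. Some tested genes, such as Orai1, were below background on every array, and 8731 to 8952 genes per array were above it. The shares of all tested genes therefore include genes that were not detected. limma 3.58.1 in R 4.3.3 fitted all 3 groups together, with Benjamini-Hochberg adjustment over all tested genes and a threshold of 0.05; the procedure was tested on simulated data. Where a lower mean was within 1 SD of background, the fold is given as "at least", from background or, if higher, from that mean. Up to 4 genes past the threshold per list and comparison were named, or the smallest p where none passed. Genes, lists, the background rule and tests were chosen with earlier results of these data known.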

Additional observations from a re-analysis of the deposited data

Results flagged for a closer look

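Among the genes named, 106 groups of 4 arrays were checked by Dixon's criterion, which flags about 1 in 20 groups by chance. In 9 of them a single array stood apart from the other 3, and none of these was of Rcan1, calcineurin or NFAT. In resolution replicate 2, Mef2a (14.30), Calcrl (9.73), Hnrnph2 (11.31), Birc6 (11.10) and Smcr8 (12.85) were the lowest of their group, the array on which Nfat5 was also lowest. In resolution replicate 4 Nr4a1 was the highest (14.57). In control replicate 4 Lrrk2 was the highest (11.07) and Smcr8 the lowest (13.73), and in control replicate 1 Pisd-ps3 was the lowest (9.25). Calcrl and Pisd-ps3 were named for a high r with Nfatc1 over these arrays, and Hnrnph2, Birc6 and Smcr8 for a high r with Nfat5. Their low arrays are therefore not independent of the levels of Nfatc1 and Nfat5, and the rate of 1 in 20 does not apply to them.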

How the results depend on the processing

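Rcan1 kept its direction under every alternative tried. Its difference was 2.69 to 2.75 in resolution versus control and 2.32 to 2.42 in resolution versus acute. In acute versus control it was 0.32 to 0.37 and did not pass. Filter changes, the mean-dependent prior, the fit of only the 2 groups compared and the mean of all clusters cannot change these differences. Rcan1 was chosen for its day 30 level, so its ranges with resolution are a description. Of 360 values of the other 6 tested genes under alternatives 338 stayed on their side of the threshold and 22 passed newly, in Nfat5, Nfatc3, Ppp3cb, Nfatc1 and Ppp3r1. The count of genes past the threshold in acute versus control was 29, and 51 with a mean-dependent prior, 16 with only the 2 groups compared, and 6 to 29 without single arrays. Without single arrays the counts were 1829 to 2242 in resolution versus control and 1069 to 1837 in resolution versus acute, where 1069 was without acute replicate 1. The main fit did not pair samples by replicate number. Deviations from the group means had correlations of -0.124 to 0.0872 between same-numbered samples, which cannot exclude that these were handled together. With the replicate block 2120 genes passed and Rcan1 differed by 2.74 in resolution versus control, 1455 and 2.42 in resolution versus acute, and 25 and 0.32 in acute versus control, and Nfat5 passed in resolution versus control (adjusted p = 0.0223). The cause of these shifts was not tested.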
